A study of Mus musculus with 11 samples.

Results

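The genes described here encode heat shock proteins and their co-chaperones, followed in mouse colon before and after the kinase inhibitor imatinib. The members were named by gene symbol: Hspa8, Hsp90aa1, Hsp90ab1, Hsph1, Hspd1, Hspe1, Hspb8, Dnaja1, Dnajb1 and Chordc1. Every probe set that the platform annotation assigned to exactly 1 of these symbols was taken, which gave 23 probe sets for 9 of the 10 genes, of 34945 probe sets and 18193 genes in all. Hsp90ab1 was not analysed here. All animals were adult C57BL/6 mice, with no transgene or deletion named in the labels. Total RNA of colon was hybridised to Affymetrix mouse 430 2.0 arrays, 1 array per sample. Control samples were labelled as colon before imatinib (n = 3), and the other groups as colon after imatinib for 3 h (n = 4) or 12 h (n = 4). Vehicle-injected mice were not analysed here, so effects of imatinib, of being injected and of the time of day at harvest cannot be told apart. Whether 1 mouse gave 1 array is not in the labels, and the p-values therefore cover the spread among these samples, which may be technical.

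Chaperones bind unfolded or partly folded proteins and help them reach or keep their folded state. HSP70 proteins such as HSPA8 take up clients handed over by J-domain partners (DNAJA1, DNAJB1), release them with the help of nucleotide exchange factors such as HSPH1, and pass some of them on to HSP90 and its co-chaperones. HSPD1 and HSPE1 form the folding chamber of mitochondria, and small heat shock proteins such as HSPB8 hold unfolded proteins without using ATP. Heat, proteotoxic drugs and HSP90 inhibitors induce many of these genes through the transcription factor HSF1, which binds heat shock elements, and in several tissues their transcripts also follow daily rhythms of body temperature and feeding.

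Signals are the deposited intensities, each array scaled to the same mean. Array medians ran from 16.8 to 23.9, and 19 of the 23 probe sets had a mean signal of at least 100. On 5 arrays (control replicate 1, 3 h replicate 3, and 12 h replicates 1, 3 and 4) transcripts of pancreatic acinar cells stood apart. The summed signal of 11 of 14 acinar markers measured ran from 5200 to 101900 in control, from 4360 to 28590 at 3 h and from 5231 to 78200 at 12 h. All 12 colon epithelium markers were measured, the dimmest at a mean signal of 599.7 (Cdx2), and their summed signal was 56530 to 66330, 51240 to 64990 and 49660 to 68060 in the same order. Fewer cells of a type and less RNA per cell cannot be told apart in bulk tissue. Results are therefore also given without the 5 arrays, which leaves 1 array at 12 h that is assumed to vary like the others. That choice was made after seeing the data.

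Between 3 h and 12 h, the co-chaperone genes Chordc1, Dnaja1 and Dnajb1 rose and the small heat shock protein gene Hspb8 fell. Between the group means of log2(signal + 16), turned back to a linear scale, the change was 2.19-fold for Chordc1, 1.91-fold for Dnaja1, 1.72-fold for Dnajb1 and 0.595-fold for Hspb8. Ratios of the mean signals themselves lie somewhat farther from 1. Against control, Chordc1 fell and Hspb8 rose at 3 h, and Dnajb1 rose at 12 h. Hspa8, Hsp90aa1, Hsph1, Hspd1 and Hspe1 passed the test in none of the 3 comparisons. Genes were tested with limma on log2(signal + 16) over all 11 arrays with Benjamini-Hochberg adjustment over 18193 genes, and a gene is called at an adjusted p under 0.05. All log2 changes are on that scale, which understates changes of dim genes.

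At 3 h against control 1 member rose and 1 fell of 9, where 1.43% of all genes rose and 1.11% fell (2.54% called in all). The median log2 change of the 9 genes was −0.31, against −0.02 over all genes, and 7 of the 9 were negative. At 12 h against control 1 member rose and none fell, against 0.781% and 0.835% of all genes (1.62% called), with a median of 0.07 against −0.01. The 3 members with an unadjusted limma p under 0.05 in that comparison were all higher, where 15.8% of all genes had such a p. At 12 h against 3 h 3 members rose and 1 fell, against 1.99% and 2.09% of all genes (4.08% called), and the median was 0.38 against 0.01. In that comparison 8 of the 9 log2 changes were positive. Those of Hspa8, Hsp90aa1, Hsph1, Hspd1 and Hspe1 were 0.38, 0.23, 0.72, 0.17 and 0.27. Without the 5 arrays high in pancreatic transcripts they were 0.17, 0.42, 0.64, 0.04 and 0.06. Of all genes, 15% had an unadjusted p under 0.05 at 3 h against control and 17.7% at 12 h against 3 h, and 6 of the 9 members had one in each of these. The comparisons share arrays, so the lower values at 3 h enter both the first and the last of them. The members were chosen with earlier results of these data known, so their shares beside those of all genes are only a description. Arrays of the groups did not overlap for 5 members at 3 h against control (55.6%, against 15.3% of all genes). They did not overlap for 2 at 12 h against control (22.2%, against 13%), and for 6 between 12 h and 3 h (66.7%, against 11.5%). Without the 5 arrays high in pancreatic transcripts no member was called in any comparison, where 80, 8 and 16 of all genes still were.

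**Figure D1:**
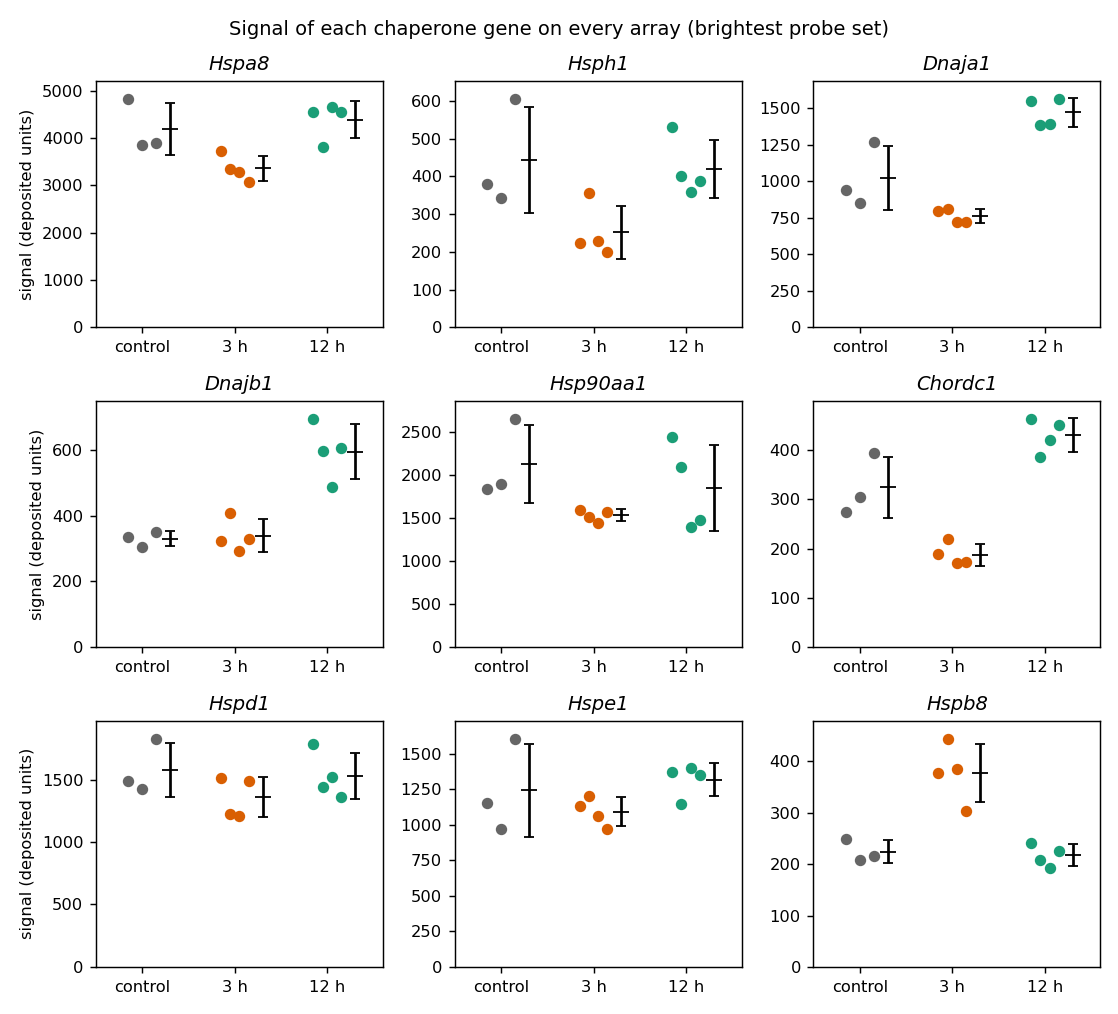
Each panel plots the deposited signal (y axis, linear, from 0) of the brightest probe set of 1 gene on every array, by group (x axis); points are arrays and the black bar is the mean with 1 SD (n = 3, 4 and 4). Chordc1, Dnaja1 and Dnajb1 lie higher on all 12 h arrays than on all 3 h arrays, and Hspb8 is higher on every 3 h array than on any other.

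Among the partners of HSP90, Chordc1 encodes a zinc-binding co-chaperone and was represented by 1 probe set (1460645_at). Its signal was 275.0, 304.4 and 393.4 on the control arrays, 189.2, 218.7, 170.4 and 172.9 at 3 h, and 462.7, 385.3, 419.4 and 451.6 at 12 h. Every 3 h array lay below every control, and every 12 h array above every 3 h array, while 1 control array reached into the 12 h range. The means were 324.3 ± 61.6 (SD, n = 3), 187.8 ± 22.2 (SD, n = 4) and 429.8 ± 34.9 (SD, n = 4). Chordc1 thus fell at 3 h by 0.73 ± 0.13 on the log2 scale (SE; limma adjusted p = 0.0154) and rose from 3 h to 12 h by 1.13 ± 0.12 (limma adjusted p = 0.000388). At 12 h against control the log2 change was 0.40 (limma adjusted p = 0.161; 95% interval 0.11 to 0.69). The call at 3 h was lost without control replicate 2 (−0.77, limma adjusted p = 0.0522). Without the 5 pancreas-high arrays the changes were −0.79 at 3 h (limma adjusted p = 0.129) and 0.94 from 3 h to 12 h (0.211).

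Hsp90aa1, the stress-inducible cytosolic HSP90 gene, did not pass the test. The brightest of its 5 probe sets (1438902_a_at) gave 1837.7, 1893.8 and 2650.0 in control, 1597.5, 1513.9, 1440.1 and 1572.7 at 3 h, and 2445.0, 2089.6, 1393.0 and 1482.1 at 12 h. All 3 h arrays were below all controls, and at 12 h replicates 1 and 2 lay within the control range and replicates 3 and 4 below it, with a mean of 1852 ± 502 (SD, n = 4). The log2 changes were −0.45 ± 0.19 (SE) at 3 h, −0.22 at 12 h against control and 0.23 from 3 h to 12 h (limma adjusted p = 0.286, 0.662 and 0.564). Its second probe set (1426645_at) gave −0.61 ± 0.16 (SE) at 3 h (limma adjusted p = 0.0965 over all probe sets) and −0.46 ± 0.16 (SE) at 12 h. In that probe set the 12 h mean, 1172 ± 210 (SD, n = 4), stayed nearer to the 3 h mean of 1043 ± 118 (SD, n = 4) than to the control mean of 1615 ± 324 (SD, n = 3). The third gave −0.40 and −0.14, and the other two had mean signals of 7.01 and 6.10.

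The J-domain genes Dnaja1 and Dnajb1 encode HSP40 proteins that deliver clients to HSP70 and stimulate its ATPase. Dnaja1 (1416288_at) read 939.9, 854.1 and 1269.0 in control, 795.7, 808.6, 724.4 and 721.4 at 3 h, and 1553.2, 1385.8, 1390.0 and 1562.1 at 12 h. The 3 groups did not overlap, in the order 3 h, control, 12 h. From 3 h to 12 h Dnaja1 rose by 0.93 ± 0.12 on the log2 scale (SE; limma adjusted p = 0.00132), between means of 762.5 ± 46.1 and 1473 ± 98.1 (SD, n = 4 each). Neither neighbouring step passed the test, with −0.40 ± 0.13 (SE) at 3 h against control (limma adjusted p = 0.153) and 0.54 ± 0.13 (SE) at 12 h against control (0.0616). Control replicate 3 was the highest of its group, and without it Dnaja1 passed at 12 h against control (0.70, limma adjusted p = 0.0164). The rise from 3 h to 12 h was smaller in its other two probe sets, 0.37 (1460179_at) and 0.46 (1459835_s_at), which were not called (limma adjusted p = 0.169 and 0.376). In 1459835_s_at 12 h replicates 1 and 2 read 308.4 and 374.4. Replicates 3 and 4 read 194.2 and 195.0, just above the 3 h arrays at 176.1 to 189.5. Averaged over the 3 probe sets the rise from 3 h to 12 h was 0.59 and still called (limma adjusted p = 0.0298). Without the 5 pancreas-high arrays it was 0.83 (0.295).

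Dnajb1, which encodes the classical heat-inducible HSP40, had a different course (1416755_at). Control arrays read 336.6, 303.9 and 349.3, 3 h arrays 324.7, 409.6, 291.5 and 329.7, and 12 h arrays 694.7, 596.1, 487.2 and 605.5. Control and 3 h overlapped, and every 12 h array lay above both. The means were 329.9 ± 23.4 (SD, n = 3), 338.9 ± 50.1 (SD, n = 4) and 595.9 ± 85.0 (SD, n = 4). Dnajb1 rose at 12 h against control by 0.81 ± 0.14 (SE; limma adjusted p = 0.0164) and against 3 h by 0.79 ± 0.13 (SE; limma adjusted p = 0.0053). At 3 h its log2 change was 0.03, with a 95% interval from −0.27 to 0.33 (limma adjusted p = 0.959). The second probe set (1416756_at) gave 0.56 ± 0.16 (SE) at 12 h against control and 0.53 ± 0.14 (SE) against 3 h, neither called (limma adjusted p = 0.132 and 0.0826 over all probe sets). The call against control was lost without control replicate 1 (0.83, limma adjusted p = 0.0662) and without control replicate 2 (0.76, 0.083). Without the 5 pancreas-high arrays the changes were 0.84 against control (0.324) and 0.73 against 3 h (0.266).

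HSPA8 is the constitutive cytosolic HSP70, and its gene passed the test in no comparison. On its brightest probe set (1420623_x_at) control arrays read 4818.0, 3856.8 and 3891.5, 3 h arrays 3724.3, 3338.9, 3287.4 and 3077.7, and 12 h arrays 4544.5, 3802.0, 4647.1 and 4558.2. The 3 h arrays lay below all others, and control and 12 h overlapped. The log2 changes were −0.31 ± 0.12 (SE) at 3 h (limma adjusted p = 0.214), 0.07 at 12 h against control (0.848) and 0.38 ± 0.11 (SE) from 3 h to 12 h (0.076). A second probe set (1455789_x_at) read 2518.5 to 2798.9 at 3 h and 3852.9 to 4600.5 at 12 h, and rose by 0.71 ± 0.10 (SE; limma adjusted p = 0.0033 over all probe sets). Both carry the suffix of probe sets that can match other sequences, and Hspa8 has processed pseudogenes, so these signals may include other transcripts. The third (1420622_a_at) split the 12 h arrays, with 1642.8 and 1868.4 on replicates 1 and 2 and 881.4 and 961.3 on replicates 3 and 4. Its log2 change from 3 h to 12 h was 0.64 ± 0.23 (SE; limma adjusted p = 0.182). The remaining one was dim, with a mean of 55.6. With the mean of all its probe sets Hspa8 rose by 0.43 from 3 h to 12 h and was called (limma adjusted p = 0.0148). It was also called there after quantile normalization (0.0307) and with an offset of 64 (0.0362). A mean signal of at least 50 and a trended robust prior gave a call too (0.034 and 0.0363).

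HSPH1 (HSP110) acts as a nucleotide exchange factor of HSP70. Its brighter probe set (1425993_a_at) gave 380.9, 343.9 and 604.5 in control, 223.3, 356.7, 227.5 and 198.9 at 3 h, and 530.1, 402.4, 358.3 and 387.5 at 12 h. The 3 h group was low except for replicate 2, which lay within the control range and just under the lowest 12 h array. At 3 h the log2 change of Hsph1 was −0.77 ± 0.22 (SE), with a limma adjusted p of 0.0985, at 12 h against control it was −0.05 (0.955), and from 3 h to 12 h 0.72 ± 0.21 (SE; 0.0771). The last one passed the test without control replicate 3 (0.72, limma adjusted p = 0.0473) and without 3 h replicate 2 (0.89, 0.0356). The other probe set (1423566_a_at) moved alike, by −0.83 at 3 h and 0.72 from 3 h to 12 h (limma adjusted p = 0.0715 and 0.0679 over all probe sets).

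The mitochondrial chaperonin genes Hspd1 (HSP60) and Hspe1 (HSP10), which lie head to head on chromosome 1, had small log2 changes. Hspd1 (1426351_at) read 1487.4, 1426.4 and 1826.6 in control, 1511.8, 1228.0, 1210.4 and 1487.5 at 3 h, and 1784.0, 1445.0, 1523.7 and 1361.0 at 12 h. Hspe1 (1450668_s_at) read 1152.0, 973.0 and 1606.4, then 1136.3, 1205.8, 1061.3 and 968.8, then 1371.9, 1144.9, 1401.4 and 1351.4. All 3 groups overlapped for both genes. From 3 h to 12 h the log2 change was 0.17 for Hspd1 (95% interval −0.10 to 0.44, limma adjusted p = 0.551). For Hspe1 it was 0.27 (95% interval −0.05 to 0.58, limma adjusted p = 0.378), so a change as large as that of Chordc1 lay outside both intervals. The dimmer Hspe1 probe set (1422579_at) gave 0.30 ± 0.13 (SE; limma adjusted p = 0.269).

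HSPB8, a small heat shock protein that works with BAG3 in chaperone-assisted autophagy and is abundant in muscle, was high at 3 h, where 7 of the other 8 genes had negative log2 changes. Its signal (1417013_at) was 249.3, 207.4 and 215.8 in control, 376.3, 443.6, 385.4 and 304.0 at 3 h, and 241.4, 208.7, 191.9 and 225.8 at 12 h. Every 3 h array lay above every other array, and control and 12 h overlapped. The means were 224.2 ± 22.2 (SD, n = 3), 377.3 ± 57.3 (SD, n = 4) and 216.9 ± 21.4 (SD, n = 4). Hspb8 rose at 3 h by 0.70 ± 0.13 (SE; limma adjusted p = 0.0166) and fell by 0.75 ± 0.12 (SE; limma adjusted p = 0.0053) from 3 h to 12 h. At 12 h against control the change was −0.04, with a 95% interval from −0.33 to 0.24 (limma adjusted p = 0.922). A dimmer probe set (1417014_at) gave 0.61 ± 0.17 (SE; limma adjusted p = 0.118) and −0.81 ± 0.16 (SE; 0.02), and the third, with a mean signal of 60.3, gave 0.07 and −0.51. The rise at 3 h was lost without control replicate 2 (0.65, limma adjusted p = 0.0784), without 3 h replicate 3 (0.69, 0.0502) and with the mean of all 3 probe sets (0.46, 0.209). Without the 5 pancreas-high arrays the changes were 0.76 (0.159) and −0.78 (0.288). Of 8 skeletal muscle markers none passed the test at 3 h, and their summed signal was 235.3 to 239.7 in control, 266.1 to 312.6 at 3 h and 207.6 to 273.8 at 12 h. Their mean log2 level was 5.03 to 5.07, 5.16 to 5.33 and 4.99 to 5.09, with every 3 h array above every other array, as for Hspb8. These markers were dim, down to a mean signal of 1.96 (Tnnt3). The summed signal of 10 smooth muscle markers was 21980 to 26290, 21950 to 31150 and 14980 to 23900, and 2 of them fell from 3 h to 12 h. The part of muscle in the Hspb8 signal was not tested.

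**Figure D2:**
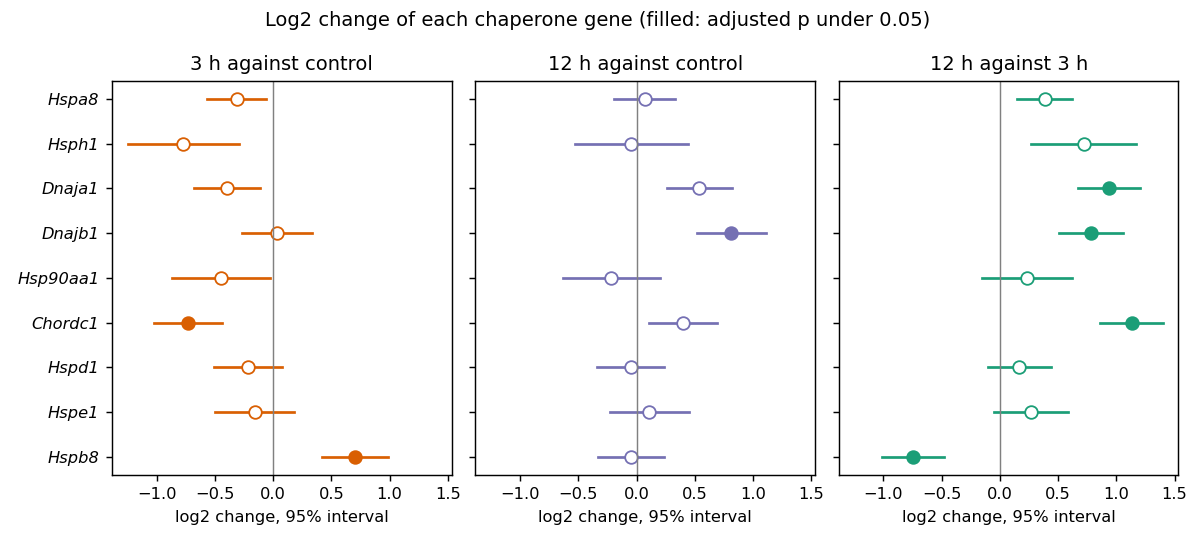
Log2 change (x axis, on the log2(signal + 16) scale) of each of the 9 genes (y axis) in the 3 comparisons, with 95% intervals from the limma fit; filled circles have an adjusted p under 0.05. At 3 h 7 of 9 lie left of 0, from 3 h to 12 h 8 of 9 lie right of it, and Hspb8 is on the opposite side in both.

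All probe sets with a mean signal of at least 100 were also set side by side, since a gene's probe sets read different stretches of its transcripts. From 3 h to 12 h 17 of these 19 were positive, and both negative ones belonged to Hspb8. At 3 h against control 14 of 19 were negative, and at 12 h against control 11 were positive and 8 negative. Tested on their own with adjustment over all probe sets, 2 of the 23 were called at 3 h, 1 at 12 h and 6 between the times. The 6 were 1 each of Hspa8, Dnaja1, Dnajb1 and Chordc1 and 2 of Hspb8. The share of all probe sets called in this way is not given here, so these counts are only a description. The shares of all genes given above rest on 1 probe set per gene and cannot stand in for it.

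**Figure D3:**
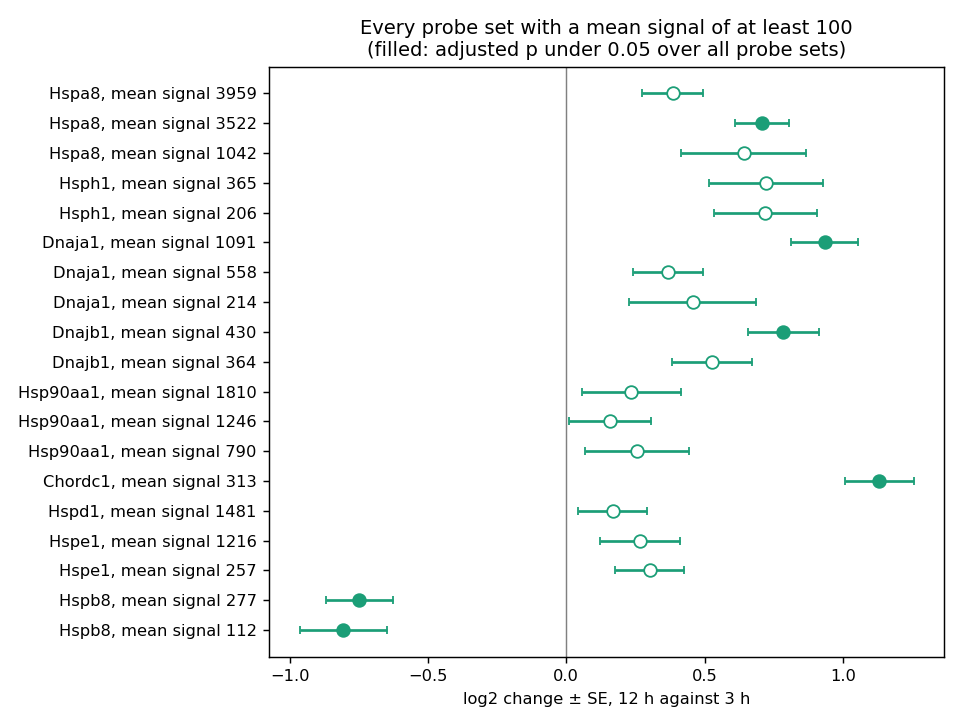
Log2 change from 3 h to 12 h (x axis) with its SE for each of the 19 probe sets with a mean signal of at least 100 (y axis, labelled with the gene and the mean signal over 11 arrays); filled circles have an adjusted p under 0.05 over all probe sets. The probe sets of Hsph1 lie close together, while those of Dnaja1 run from 0.37 to 0.93.

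Promoters of these genes are shown because heat shock elements are their best known shared sequence. An element is built of alternating units of GAA and its complement TTC with 2 bases between units. The search took the longest alternating run in RefSeq windows of 300 bases, from 250 before to 50 after each annotated start (GRCm38.p6). The letters were GAANNTTC and TTCNNGAA for 2 units and GAANNTTCNNGAA and TTCNNGAANNTTC for 3 units. The 2-unit forms read the same on both strands and the 3-unit forms are each other's complement, so both strands were covered, and a longer run contains the shorter forms but was counted once. Windows matched 7 of the 10 genes, and Hspa8, Hsp90aa1 and Hsp90ab1 were not matched. Of 32851 windows 15.1% held at least 2 units, 0.603% at least 3 and 0.0244% at least 4. Among the 7 genes 6 held at least 2 units and 4 at least 3.
Chordc1, plus strand, chr9:18292203-18292296, 5 units, capitals mark the units: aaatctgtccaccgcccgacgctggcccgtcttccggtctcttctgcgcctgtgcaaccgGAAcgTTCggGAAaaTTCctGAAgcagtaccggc
Hspe1, plus strand, chr1:55087999-55088096, 4 units: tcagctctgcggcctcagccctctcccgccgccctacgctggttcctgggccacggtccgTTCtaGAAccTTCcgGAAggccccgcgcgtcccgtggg
Hsph1, minus strand, chr5:149636286-149636360, 3 units: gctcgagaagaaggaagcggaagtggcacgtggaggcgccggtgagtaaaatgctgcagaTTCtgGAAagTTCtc
Dnaja1, plus strand, chr4:40722284-40722371, 2 units: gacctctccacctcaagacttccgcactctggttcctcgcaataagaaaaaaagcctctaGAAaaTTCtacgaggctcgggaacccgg
Hspb8, minus strand, chr5:116422835-116422922, 2 units: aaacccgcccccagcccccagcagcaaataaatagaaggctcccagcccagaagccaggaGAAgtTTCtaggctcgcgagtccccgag

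The run of Chordc1 spans its annotated start, from −4 to +19. That of Hspe1 lies at −89 to −72, and the same bases are the run of Hspd1, at −144 to −127 from 1 of its 2 starts on the other strand. Hsph1 has 3 units at +16 to +28 of its nearer annotated start, Dnaja1 has 2 at −124 to −117 of the most upstream of its 3 starts, and Hspb8 has 2 at +3 to +10. Both windows of Dnajb1 held no run of 2 units. The number of units did not order the changes. Chordc1, with 5, had the largest rise from 3 h to 12 h, Hspd1 and Hspe1, with 4, were not called, and Dnajb1, with no run of 2, rose by 0.79. A match describes letters only, and no match says only that these letters are not in the window.

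**Figure D4:**
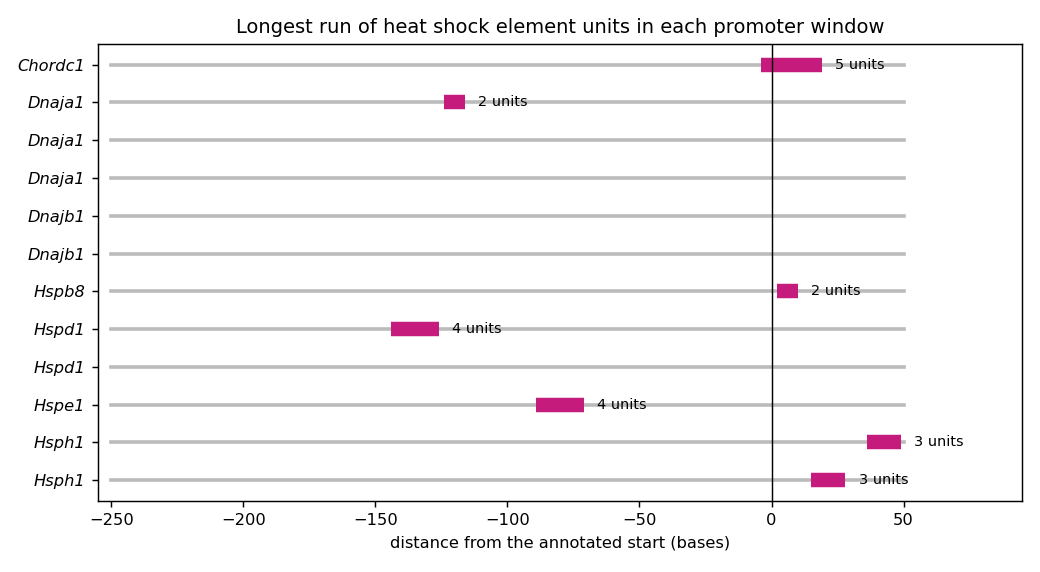
Position of the longest run of heat shock element units (pink) in each RefSeq window (grey line, 1 row per annotated start) of the 7 genes matched, by distance from the annotated start in bases (x axis); rows with no pink mark held no run of 2 units. The run of Hspe1 and that of Hspd1 are the same bases seen from opposite strands.

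Other chaperone genes, 110 in 9 lists, were followed beside the members. These lists, like the members, were chosen with earlier results of these data known, so the contrast is only a description. Of the 110 genes 106 were measured. At 3 h 2 rose and 1 fell, at 12 h against control 2 rose, and from 3 h to 12 h 1 rose and 2 fell. The shares called were 2.83%, 1.89% and 2.83%, beside 2.54%, 1.62% and 4.08% of all genes. The median log2 changes of the 106 were −0.06, 0.00 and 0.03, against −0.02, −0.01 and 0.01 over all genes. In the cytosolic HSP70 and HSP110 list (10 genes) Hspa2, best known from testis but also expressed elsewhere, had the course of Hspb8. Its means were 48.7 ± 2.34 (SD, n = 3), 126.6 ± 22.4 (SD, n = 4) and 51.3 ± 5.98 (SD, n = 4). It rose at 3 h by 1.13 ± 0.13 on the log2 scale (SE; limma adjusted p = 0.000696) and fell by 1.07 ± 0.12 (SE; 0.000388) to 12 h. Hspa4l, an HSP110 relative, fell at 3 h by 0.72 ± 0.16 (SE; limma adjusted p = 0.0336), from 222.5 ± 40.1 (SD, n = 3) to 128.3 ± 20.7 (SD, n = 4). Leaving out any 1 of the control arrays or of those at 3 h ended the Hspa4l call (−0.84 to −0.60, limma adjusted p up to 0.104). The heat-inducible pair Hspa1a and Hspa1b are near-identical copies whose signals may be mixed. Hspa1a read 131.4 to 155.3 in control, 189.8 to 529.4 at 3 h with 3 h replicate 2 the highest, and 197.4 to 442.6 at 12 h. Its groups after imatinib did not overlap control, yet its log2 changes of 0.80 ± 0.32 (SE) and 1.02 ± 0.32 (SE) were not called (limma adjusted p = 0.256 and 0.145), nor was that of Hspa1b at 12 h, 1.07 ± 0.37 (SE; 0.181).

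Among 8 small heat shock proteins only Hspb7, a muscle-enriched member, was called, at 12 h against control, in these comparisons. It rose from 68.0 ± 16.6 (SD, n = 3) to 183.1 ± 51.9 (SD, n = 4), by 1.22 ± 0.25 (SE; limma adjusted p = 0.0375). The call was lost without any 1 of the 3 controls, of 12 h replicates 1 to 3 or of 3 h replicate 4 (1.05 to 1.34, limma adjusted p up to 0.157). Hspb1 (HSP25), an actin-protecting small heat shock protein, had the course of Hspb8. On its brighter probe set, the one tested for the gene, it was not called and read 1722.8 to 2063.0 in control, 2404.9 to 3578.7 at 3 h and 1531.3 to 2557.8 at 12 h. Its log2 changes were 0.70 ± 0.18 (SE) at 3 h (limma adjusted p = 0.059) and −0.59 ± 0.16 (SE) from 3 h to 12 h (0.0694). On its other probe set (1425964_x_at) it rose by 0.97 ± 0.20 (SE; limma adjusted p = 0.0356 over all probe sets) and then fell by 0.84 ± 0.18 (SE; 0.0343), between means of 981.8 ± 77.4 (SD, n = 3), 1958 ± 339 (SD, n = 4) and 1100 ± 263 (SD, n = 4).

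Of 20 measured HSP90 co-chaperones, Fkbp5 rose at 3 h and Ahsa1 from 3 h to 12 h. Fkbp5, an immunophilin induced by glucocorticoids, went from 407.5 ± 31.1 (SD, n = 3) to 1073 ± 52.6 (SD, n = 4) and 927.5 ± 114 (SD, n = 4). It rose by 1.36 ± 0.11 (SE; limma adjusted p = 6.05e-05) and, at 12 h against control, by 1.15 ± 0.11 (SE; 0.000257). Without the 5 pancreas-high arrays Fkbp5 and Hspa2 still rose at 3 h, by 1.32 and 1.21 (limma adjusted p = 0.0129 and 0.0461). The other calls of both genes were lost there, at 1.18 for Fkbp5 at 12 h against control (0.107) and −1.0 for Hspa2 from 3 h to 12 h (0.194). With the posterior Hox level as a covariate the 3 h changes were 1.24 for Fkbp5 and 1.12 for Hspa2 (limma adjusted p = 0.121 and 0.311), neither called, and that of Hspa2 from 3 h to 12 h was −1.07 (0.313). Ahsa1, the activator of the HSP90 ATPase, went from 362.5 ± 26.5 to 525.5 ± 91.4 (SD, n = 4 each), by 0.50 ± 0.12 (SE; limma adjusted p = 0.0436). That call was lost without control replicate 1, without any 1 of the arrays at 3 h and without 12 h replicates 1, 2 or 4 (0.40 to 0.55, limma adjusted p up to 0.111), and with the mean of its 2 probe sets the change was 0.23 (0.144). The HSP70 to HSP90 adaptor Stip1 had changes of −0.53 ± 0.15 (SE; limma adjusted p = 0.0967) at 3 h and 0.49 ± 0.14 (SE; 0.076) to 12 h. Fkbp4, another immunophilin of HSP90, had 0.49 ± 0.14 (SE; 0.0793) to 12 h. The list's median was −0.18 at 3 h and 0.09 from 3 h to 12 h.

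The remaining lists held 1 call. Bag2, an inhibitor of the ubiquitin ligase CHIP, fell from 134.7 ± 19.6 to 86.3 ± 16.5 (SD, n = 4 each) between the times, by 0.56 ± 0.13 (SE; limma adjusted p = 0.0309). It was lost without any 1 of 3 h replicates 1 to 3 or 12 h replicates 1 to 3 (−0.61 to −0.47, limma adjusted p up to 0.0913). With the posterior Hox level as a covariate, added after seeing the data, its log2 change was −0.08. Bag3, the partner of HSPB8, had 0.27 ± 0.14 (SE; limma adjusted p = 0.383) at 3 h. No gene was called by limma among 16 J-domain proteins, 12 mitochondrial chaperones and proteases, 14 TRiC and prefoldin subunits or 17 chaperones of the endoplasmic reticulum. Where 15%, 15.8% and 17.7% of all genes had an unadjusted p under 0.05 in the 3 comparisons, 5, 4 and 8 of those 59 did. Among them were the endoplasmic reticulum genes Pdia6, a disulfide isomerase (−0.50 ± 0.13 SE at 3 h, limma adjusted p = 0.0622), and Dnajb9, a partner of BiP (0.46 ± 0.10 SE at 12 h against control, 0.0512). Heat shock factors had dim probe sets: Hsf2 had mean signals of 11.8 to 18.4 over the groups and Hsf4 of 18.2 to 20.3. The HSF1-binding inhibitor Hsbp1, at 738.3 ± 66.2 (SD, n = 3) in control, had log2 changes of −0.07, −0.04 and 0.03. None of these 3 passed the test and none had an unadjusted p under 0.05, and Hsf1 itself was not analysed here.

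**Figure D5:**
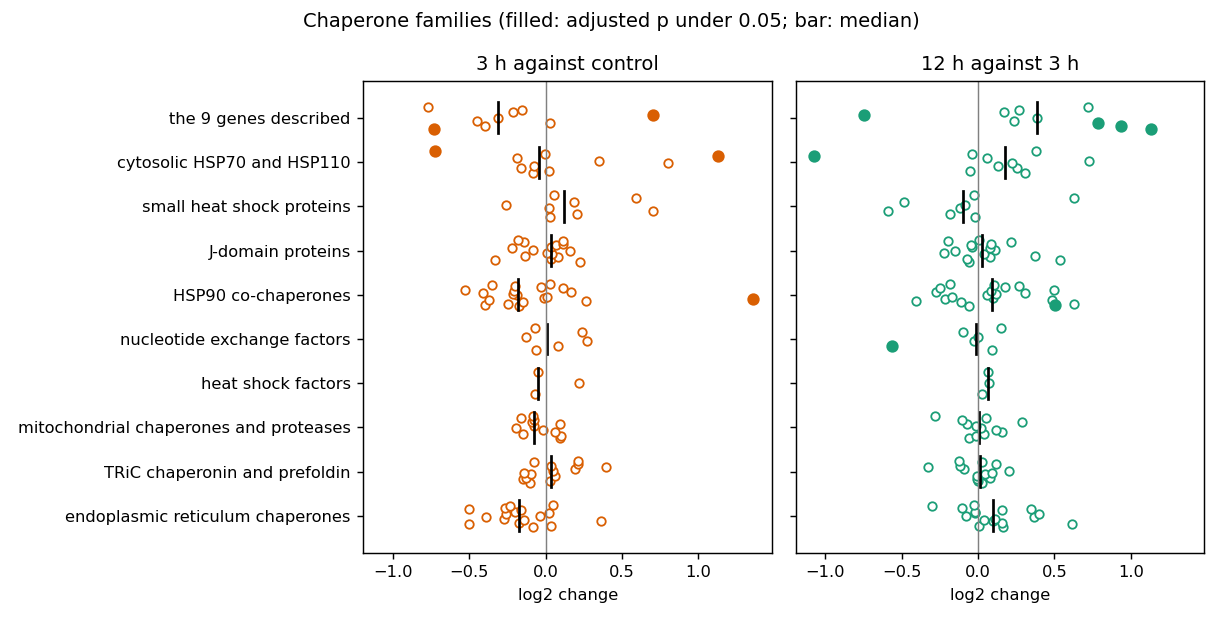
Log2 change (x axis) of every measured gene in each chaperone list (y axis) at 3 h against control and at 12 h against 3 h; 1 circle is 1 gene, filled where the adjusted p is under 0.05, and the black bar is the list's median. The 9 genes described have medians of −0.31 and 0.38, and the other lists lie nearer to 0.

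Other measures of tissue makeup moved with the 3 h group. The summed signal of 9 of 9 posterior Hox genes measured, which mark distal colon, was 1557 to 2106 in control, 750.6 to 1182 at 3 h and 1618 to 1810 at 12 h. Every 3 h array was thus below every other array, as it was for Chordc1, and 4 of the 9 Hox genes fell at 3 h and 4 rose from 3 h to 12 h. That of 8 of 10 mesenteric fat markers was 1922 to 2445, 3850 to 5171 and 2076 to 4877, with every 3 h array above every control. No marker of either list was at 0, the dimmest being Hoxd12 and Lep with mean signals of 5.50 and 3.74. With the Hox level as a covariate no member was called at 3 h or from 3 h to 12 h, and 6 and 8 of all genes were. The log2 changes from 3 h to 12 h were then 1.47 for Chordc1, 1.10 for Dnaja1, 0.89 for Dnajb1 and −0.68 for Hspb8 (limma adjusted p = 0.103, 0.305, 0.469 and 0.59). For Hspa8, Hsp90aa1, Hsph1, Hspd1 and Hspe1 the Hox covariate gave log2 changes of −0.01, −0.49, −1.33, 0.02 and −0.34 at 3 h. From 3 h to 12 h it gave 0.06, 0.28, 1.32, −0.09 and 0.46 in the same order. With the fat level as a covariate the members called numbered 0, 1 and 4 in the 3 comparisons. In that fit Hspa8, Hsp90aa1, Hsph1, Hspd1 and Hspe1 had −0.5, 0.11, −0.69, −0.02 and −0.35 at 3 h. Both levels separate the 3 h arrays from control, so each covariate partly restates the group, and both were chosen after seeing the data. With the pancreatic level as a covariate the same numbers of members were called as without it. Probe sets at the 3′ and 5′ ends of Actb had ratios of 1.27 to 1.34 in control, 1.27 to 1.38 at 3 h and 1.23 to 1.37 at 12 h, so this sign of RNA quality overlapped between the groups.

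Genes were ranked by the likeness of their levels over the 11 arrays to those of the 9 members. The measure was the Pearson correlation with the members' mean standardised log2 level, Hspb8 included. It covered 6861 other genes with a mean signal of at least 100. The ranking is a description, since the points share the 3 groups and each array's tissue makeup. The closest 8 were Rbm14 (r = 0.954), Clic1 (0.951), Trappc4 (0.94), Pgk1 (0.936), Rilpl2 (0.935), Ciao2b (0.923), Mrps12 (0.922) and Tmem50b (0.91). They encode, among others, an RNA-binding coactivator (Rbm14), an intracellular chloride channel protein (Clic1), a glycolytic kinase (Pgk1) and a mitochondrial ribosomal protein (Mrps12). None of the 8 is in a chaperone list. After subtracting group means, their r with the members' mean ran from 0.77 (Tmem50b) to 0.95 (Clic1). The 8 were picked by r over the same 11 arrays, within-group spread included. High values within groups are thus no separate support for the likeness. From 3 h to 12 h Rbm14 rose by 0.83 (limma adjusted p = 0.0066), Tmem50b by 0.70 (0.00255) and Rilpl2 by 0.47 (0.0247), and the other 5 were not called. Among the members themselves, the 28 pairs without Hspb8 had r between 0.22 and 0.96, the highest for Dnaja1 and Chordc1, and the 8 pairs with Hspb8 had r between −0.82 and −0.36. Within groups, after subtracting group means, 7 of those 8 pairs were positively correlated, and the 28 pairs without Hspb8 had r between −0.37 and 0.91. Hspa8 went from 0.77 to −0.05 with Chordc1 and from 0.72 to 0.07 with Dnaja1. Dnaja1 with Chordc1 went from 0.96 to 0.85.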

How the data were processed

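Biotin-labelled total RNA of 11 colon samples was hybridised to expression arrays, per the labels' protocols. The deposited table gives 1 intensity per probe set and array on a linear scale, and the software behind it is not given in the sources used here. Trimmed by 2% at either end, the mean intensity of each array came to 100.0, which shows 1 scaling factor per array. Leaving out controls, the annotation paired 34945 of 45037 probe sets with a single gene symbol and 932 with several, and 9160 were unnamed. Symbols were updated by Entrez number to RefSeq (GRCm38.p6; 99.5% found), and for each gene the probe set of highest mean intensity was tested. No 2 arrays held identical values. Precision is limited by how many arrays there are.

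Values were taken as log2(signal + 16) and fitted with limma 3.58.1 in R 4.3.3 (group means, 8 residual and 3.98 prior degrees of freedom, 2-sided), a procedure tested on simulated data. The members, gene lists, alternatives and naming rule were chosen with earlier results of these data known. The rule named all members, called genes of the other lists, up to 2 more per list by p, all heat shock factors, and the 8 genes most alike. Same-numbered samples did not deviate together throughout (correlations from −0.208 to 0.309), so fits are unpaired. At 12 h against control replicates 1 and 2 had 0.201 and 0.309, each with the same-numbered control as the best match, and replicate 3 had −0.0925. Alternatives covered scaling, offset, a signal filter, the choice of probe set, the variance prior, array weights, the arrays fitted, a replicate block and the threshold. Promoter sequences are RefSeq's. Figures used matplotlib 3.10.9 in Python 3.11.15.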

Additional observations from a re-analysis of the deposited data

Results flagged for a closer look

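For 4 members the 12 h and 3 h arrays differed by the limma test of that difference itself, so their courses after imatinib were not the same at both times. The log2 difference was 1.13 for Chordc1, 0.93 for Dnaja1 and 0.79 for Dnajb1, all higher at 12 h, and −0.75 for Hspb8, higher at 3 h. Each difference was seen without overlap of the 4 and 4 arrays.

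In 2 probe sets 1 of the 4 arrays at 12 h lay far from the other three, by Dixon's criterion for small groups. Chance alone gives such a value in about 1 of 20 groups. The 3 h and 12 h groups of all 23 probe sets were screened, so a few such values would arise by chance alone. On the brightest Hspa8 probe set replicate 2 read 3802.0 where the others read 4544.5 to 4647.1, a gap of 0.879 of the range. On the dimmer of both Hspb8 probe sets above a mean signal of 100 replicate 4 read 109.6 where the others read 71.7 to 74.5, a gap of 0.926 of the range.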

How the results depend on the processing

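Of 945 values of single genes under alternatives, 838 kept their side of the threshold, 88 lost a call, 19 gained one and none of those called changed sign. The calls of Chordc1, Dnaja1, Dnajb1 and Hspb8 from 3 h to 12 h held under each of the alternatives listed in the methods and with each of the 11 arrays left out in turn. Members called at 12 h against control numbered 1, but 2 after quantile normalization, with an offset of 64, a mean signal of at least 50, a trended robust prior or a threshold of 0.1, and 0 with an offset of 1 or a fit of only the groups compared. At 3 h they numbered 2, but 3 with a mean signal of at least 50 or a threshold of 0.1, 1 with the mean of a gene's probe sets and 1 with the replicate block, under which Chordc1 had −0.73 (limma adjusted p = 0.0626). From 3 h to 12 h they numbered 4, but 5 after quantile normalization, with an offset of 64 or with the mean of a gene's probe sets, and 6 with a mean signal of at least 50, the trended robust prior or a threshold of 0.1. The block changed no other member's call. The replicate numbers did not match the samples throughout. Of all genes the block left 278, 182 and 467 called in the 3 comparisons in place of 463, 294 and 742. All genes called were 228, 80 and 437 with an offset of 1, and 879, 682 and 1276 at a threshold of 0.1. At 12 h against control they were 492 with an offset of 64, 619 with a mean signal of at least 50, 527 with the trended robust prior and 60 with a fit of only the groups compared. With equal array medians 289 rose and 147 fell at 3 h in place of 261 and 202, and 164 rose and 115 fell at 12 h against control in place of 142 and 152. Leaving out 1 array gave 0 to 2, 0 to 2 and 4 to 5 members and 161 to 520, 63 to 449 and 391 to 755 of all genes in the 3 comparisons.

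Alternatives added after seeing the data left fewer calls. Without the 5 arrays high in pancreatic transcripts 0, 0 and 0 members and 80, 8 and 16 of all genes were called, in a fit of fewer samples. With the pancreatic level as a covariate 179 genes at 12 h against control and 317 from 3 h to 12 h were called. With the posterior Hox level members numbered 0 at 3 h and 0 from 3 h to 12 h, of 6 and 8 genes called. With the fat level members numbered 0 at 3 h, and 76, 138 and 405 genes were called. The cause of these losses was not tested.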

Other observations

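The search for heat shock element units was also run over all tested genes. Of 14452 tested genes with a RefSeq promoter window 88 held a run of at least 3 units, and 84 of these were not members. Among the 84, 1 rose and none fell at 3 h, 3 rose and 1 fell at 12 h against control, and none rose and 1 fell from 3 h to 12 h, with median log2 changes of −0.04, 0.00 and 0.04. The shares called were 1.19%, 4.76% and 1.19%, beside 2.54%, 1.62% and 4.08% of all genes, which rest on 1, 4 and 1 genes and were not tested. Creb3l3, which encodes a membrane-bound transcription factor of lipid metabolism, rose at 3 h by 1.14 ± 0.19 (SE; limma adjusted p = 0.00861) and was still higher at 12 h against control, by 0.95 ± 0.19 (SE; 0.0302). Iapp, the islet peptide amylin, and Plscr4, a phospholipid scramblase family gene, rose at 12 h against control by 1.85 ± 0.36 (SE; limma adjusted p = 0.0284) and 0.77 ± 0.17 (SE; 0.0428). Their mean signals were 48.4, 50.3 and 51.6. Of the 4 arrays at 12 h, 3 are among those high in pancreatic transcripts, and the part of pancreas in the Iapp signal was not tested. Tex12, a meiotic gene with a mean signal of 16.4, near the offset, fell at 12 h against control by 0.87 ± 0.19 (SE; 0.0435) and from 3 h by 0.98 ± 0.17 (SE; 0.00977).

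Only 6 tested genes held 4 or more units: Chordc1, Hspd1, Hspe1, Arpc2, Fam149a and Kctd18. Arpc2, a subunit of the actin-nucleating ARP2/3 complex, had a mean signal of 3528 and log2 changes of 0.03, 0.06 and 0.02 in the 3 comparisons. Fam149a and Kctd18 were dim, with mean signals of 31.9 and 46.0, and were not called. Chordc1 was thus the single called gene among the 6, at 3 h and from 3 h to 12 h.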
